A study of Mus musculus with 6 samples.

Results

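AP-1 and its ATF3 and BATF partners are transcription factors of the basic leucine zipper (bZIP) class, and the transcripts of 10 of them were measured in mouse bone marrow–derived macrophages (BMDMs). The genes were *Fos*, *Fosb*, *Fosl1* and *Fosl2*, *Jun*, *Junb* and *Jund*, and *Atf3*, *Batf* and *Batf3*, and they made up 10 of the 34787 gene names on the array. They were chosen by gene name when the levels and the differences between the groups on these same arrays were already known, so both are given as a description. An adjusted p below only sets a difference against the spread between replicates. All 10 names were found, on 11 of 55681 probes and 29 of 59305 spots per array.

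The study asked how an inhibitor of USP7, a deubiquitinase, alters the transcriptional response of macrophages to lipopolysaccharide (LPS), a ligand of TLR4. All groups were BMDMs from wild type female mice, with the strain given as C57/B6 and the age as 6 to 8 weeks in the labels, grown out for 7 days in medium conditioned by L929 cells. Untreated cells received neither agent, the LPS group was stimulated for 4 h, and the LPS+USP7i group received a small molecule inhibitor of USP7 at 10 µM, 30 min before the same stimulation. The paper gives an older age range than the labels. The series description puts LPS at 100 ng/ml, while the treatment protocol states 100 ng/µl. Whether the cells without the inhibitor received its solvent is not stated, so the effects of inhibitor and solvent cannot be told apart. No group received the inhibitor without LPS, so an effect of the inhibitor alone and one on the LPS response cannot be told apart. Each group had 2 arrays from separate experiments, which limits how precise each value can be. With 2 arrays against 2, an exact two-sided permutation test cannot go below p = 0.333, so differences were set against the spread in a limma fit of all 6 arrays.

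Cy3-labeled RNA was hybridized to 1-color Agilent arrays on 1 slide read in 1 scan. Untreated, LPS and LPS+USP7i arrays lay in slide rows 1, 2 and 4, so treatment and slide row cannot be told apart. Every replicate 1 lay in slide column 1 and every replicate 2 in slide column 2. In untreated cells 27467 and 27126 spots were well above background, compared with 25223 and 25002 on LPS arrays and 26415 and 25290 on those of LPS+USP7i. Of the 10 macrophage markers examined, 9 were well above background on every array, with *Csf1r* the brightest, whereas *Cd163* was above it on 0 arrays. The summed normalized signal of these markers was 735400 and 729000 on untreated arrays, 727400 and 754100 on LPS arrays and 632200 and 593700 on LPS+USP7i arrays. All 10 members passed the background criterion on both arrays of at least 1 group.

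Markers of other cells were also read. Neutrophil markers, led by *Mmp8*, were above background on all 6 arrays for 7 of 9 genes, and their sums were 9316 and 12870, 8710 and 16370, and 11410 and 16260 in untreated, LPS and LPS+USP7i cells. Of 7 dendritic cell markers, *Siglech* alone was above background on all 6 arrays, and *Flt3*, *Xcr1*, *Clec9a*, *Cd209a* and *Itgae* were above it on 0 arrays; the sums were 45060 and 38070, 25350 and 24870, and 51420 and 34670 in the same order. The 6 T and NK cell markers found, led by *Cd4*, summed to 2193 and 2024, 2347 and 2082, and 2384 and 1791, with 2 above background on all 6 arrays and *Cd8a* on 0. B cell markers, led by *Cd79b*, summed to 1057 and 668.5, 1153 and 532.7, and 714.9 and 314.5, with 2 of 5 above background on all 6 arrays. The 5 mast cell markers, led by *Kit*, summed to 199.1 and 102.6, 157.2 and 55.16, and 101.2 and 49.45, with 1 above background on all 6 arrays and 2 on 0. The 6 fibroblast markers, led by *Dcn*, summed to 64.18 and 67.93, 114 and 83.65, and 96.59 and 68.96, with 0 above background on all 6 arrays and 4 on 0. The part of other cells in the values below was not tested. In bulk samples such as these, fewer cells of a type and less RNA per cell cannot be told apart.

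FOS proteins cannot pair with themselves and bind DNA as heterodimers with JUN proteins, whereas JUN proteins can also pair with each other. ATF3 and the BATF proteins share the zipper and pair with JUN proteins; BATF proteins lack a transactivation domain and also act with IRF4 and IRF8 on composite elements. Several of these genes are immediate early genes in macrophages, whose transcripts rise and decay quickly after a TLR ligand is added, and MAP kinases control both their transcription and the activity of their proteins.

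Promoters of members are shown because AP-1 and ATF proteins are known to bind the promoters of some of these genes, and those printed are the ones that held a match, whether or not the member differed between groups. The RefSeq promoters used here included 9 of the 10 members, each 300 bases long with 250 before the start of the transcript and 50 after it, among 32851 promoters in all. No promoter of *Fosl1* was found among them. On either strand, 0 members held TGACTCA, the AP-1 element (5.2% of all promoters), TGANTCA, which includes it (7.81%), TGACGTCA, the cyclic AMP response element (1.79%), GGNNTTTCC, a κB-like motif (5.82%), or a CArG box (1.63%). The letters searched are not in these windows, and nothing about a factor follows from that. After this was seen, 2 further motifs were added, TGACNTCA (8.83%) and TGACG, which is part of TGACGTCA (20.8%). *Jun* held TGACATCA 45 bases before the start. TGACG was found in 5 members, at 129 and 66 bases before the start in *Fos*, at 60 in *Fosb*, at 106 in *Junb*, at 98 in *Batf* and, as CGTCA on the other strand, at 7 in *Atf3*. A match describes letters only. The 250 bases before the start of these 6 genes are given 5′ to 3′ on the strand of the gene, with the matches in capitals, from build GRCm38.p6: *Fos* chr12:85473640-85473889 (plus strand), *Fosb* chr7:19310046-19310295 (minus), *Jun* chr4:95052223-95052472 (minus), *Junb* chr8:84978749-84978998 (minus), *Atf3* chr1:191183334-191183583 (minus) and *Batf* chr12:85686470-85686719 (plus).
Fos: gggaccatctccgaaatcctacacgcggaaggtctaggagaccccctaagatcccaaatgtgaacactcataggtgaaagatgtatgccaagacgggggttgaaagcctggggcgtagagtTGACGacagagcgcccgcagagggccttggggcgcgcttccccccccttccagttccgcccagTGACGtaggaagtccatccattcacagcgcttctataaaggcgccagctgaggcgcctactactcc
Fosb: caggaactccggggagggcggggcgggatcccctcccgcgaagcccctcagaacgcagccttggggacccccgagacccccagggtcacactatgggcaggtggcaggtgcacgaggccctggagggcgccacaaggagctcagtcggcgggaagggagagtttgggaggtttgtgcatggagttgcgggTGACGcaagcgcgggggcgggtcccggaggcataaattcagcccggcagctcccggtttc
Jun: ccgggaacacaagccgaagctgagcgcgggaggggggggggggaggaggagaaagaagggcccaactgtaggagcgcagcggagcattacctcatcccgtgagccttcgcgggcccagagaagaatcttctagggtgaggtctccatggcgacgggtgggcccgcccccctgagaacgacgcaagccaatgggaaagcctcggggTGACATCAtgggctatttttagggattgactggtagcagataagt
Junb: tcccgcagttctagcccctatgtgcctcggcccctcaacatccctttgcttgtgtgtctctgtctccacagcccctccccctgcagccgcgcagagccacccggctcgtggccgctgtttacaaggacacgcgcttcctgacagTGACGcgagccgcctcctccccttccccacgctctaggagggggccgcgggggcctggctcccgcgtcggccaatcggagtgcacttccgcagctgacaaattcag
Atf3: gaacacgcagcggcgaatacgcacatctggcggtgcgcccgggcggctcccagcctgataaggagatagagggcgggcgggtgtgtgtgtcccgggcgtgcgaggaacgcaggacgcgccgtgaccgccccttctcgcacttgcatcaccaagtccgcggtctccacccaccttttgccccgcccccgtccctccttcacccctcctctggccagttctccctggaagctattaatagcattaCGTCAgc
Batf: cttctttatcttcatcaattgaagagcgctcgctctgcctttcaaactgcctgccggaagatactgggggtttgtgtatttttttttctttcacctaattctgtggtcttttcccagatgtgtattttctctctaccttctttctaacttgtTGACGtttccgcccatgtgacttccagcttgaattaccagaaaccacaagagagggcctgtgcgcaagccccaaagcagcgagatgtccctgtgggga

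LPS was accompanied by higher *Batf* and *Junb* and lower *Fos*, *Fosl2* and *Batf3*, whereas LPS+USP7i differed from LPS by higher *Fos*, *Fosl1* and *Atf3* and lower *Batf*. The smallest of these differences, that of *Atf3* at 0.51, passed in 4 of 14 alternatives only. At an adjusted p under 0.05 in limma, 2 members were higher and 3 lower with LPS than in untreated cells, and 5 passed in neither direction. Over all 34786 genes tested, 7.98% were higher and 12.8% lower in that comparison, and over the 18327 above background on both arrays of a group 13.8% and 23%. Between LPS+USP7i and LPS, 3 members were higher and 1 was lower, with 5.52% of all genes higher and 4.27% lower, or 9.73% and 7.27% of those above background. Between LPS+USP7i and untreated cells 2 members, *Fosl1* and *Junb*, were higher and 1, *Batf3*, was lower, with 6.16% and 8.71% of all genes, or 10.8% and 15.5% of those above background. Because the members were chosen with these differences known, nothing is read from their counts against those shares. The median log2 difference of the members was −0.13, 0.76 and 0.058 in the 3 comparisons. It was 0.0016, 0.00092 and −0.0021 over all genes, and −0.19, 0.059 and −0.092 over the 18327 above background. Nothing is read from these medians either. The comparisons share arrays, since LPS arrays enter the first 2 with opposite sign, so the values of each are given side by side and no overlap between them is drawn.

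The counts of members, like those of all genes, changed when 1 array was left out. Without untreated replicate 1 or untreated replicate 2, 1 member passed between LPS and untreated cells, with 3.96% and 3.27% of all genes higher and 5.79% and 4.73% lower. In the same 2 settings 0 members and 0 of all genes passed between LPS+USP7i and LPS, although limma gave 5 members an unadjusted p under 0.05. The members' differences between LPS+USP7i and LPS were the same without an untreated array, and only the estimate of the spread had fewer arrays. Without LPS replicate 1 or LPS replicate 2, 2 members passed in each of these comparisons, with 5.42% and 6.09% of all genes higher and 5.95% and 7.43% lower with LPS, and 1.51% and 1.55% higher and 2.27% and 2.01% lower between LPS+USP7i and LPS. Without LPS+USP7i replicate 1, 6 and 3 members passed, and without LPS+USP7i replicate 2, 6 and 6; with LPS 7.42% and 7.43% of all genes were then higher and 11.6% lower in each case, and between LPS+USP7i and LPS 3.34% and 5.48% were higher and 1.69% and 3.41% lower. Against untreated cells, LPS+USP7i gave 1 member without either untreated array (1.8% and 1.36% of all genes higher, 2.58% and 1.62% lower), 2 without either LPS array (3.87% higher and 5.62% lower) and 4 without either LPS+USP7i array (5.74% and 5.43% higher, 5.36% and 5.21% lower). Scaling each array to its 75th percentile, in place of quantile normalization, shifted the median log2 difference of all genes by 0.40 in LPS against untreated cells, by 0.44 in LPS+USP7i against untreated cells and by 0.0015 in LPS+USP7i against LPS. Single members did not move alike: with LPS, *Batf3* went from −1.15 to −1.13 and *Atf3* from −0.30 to 0.33. Values given below relative to the shift are therefore a description only. Under that scaling 12150 genes were higher and 4048 lower with LPS than in untreated cells, in place of 2775 and 4443, and 4 members were higher, *Fosl1* among them although dim in both groups, and 3 lower. Between LPS+USP7i and untreated cells it gave 12182 higher and 3354 lower genes, in place of 2144 and 3031, and 4 members higher and 1 lower.

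**Figure D1:**
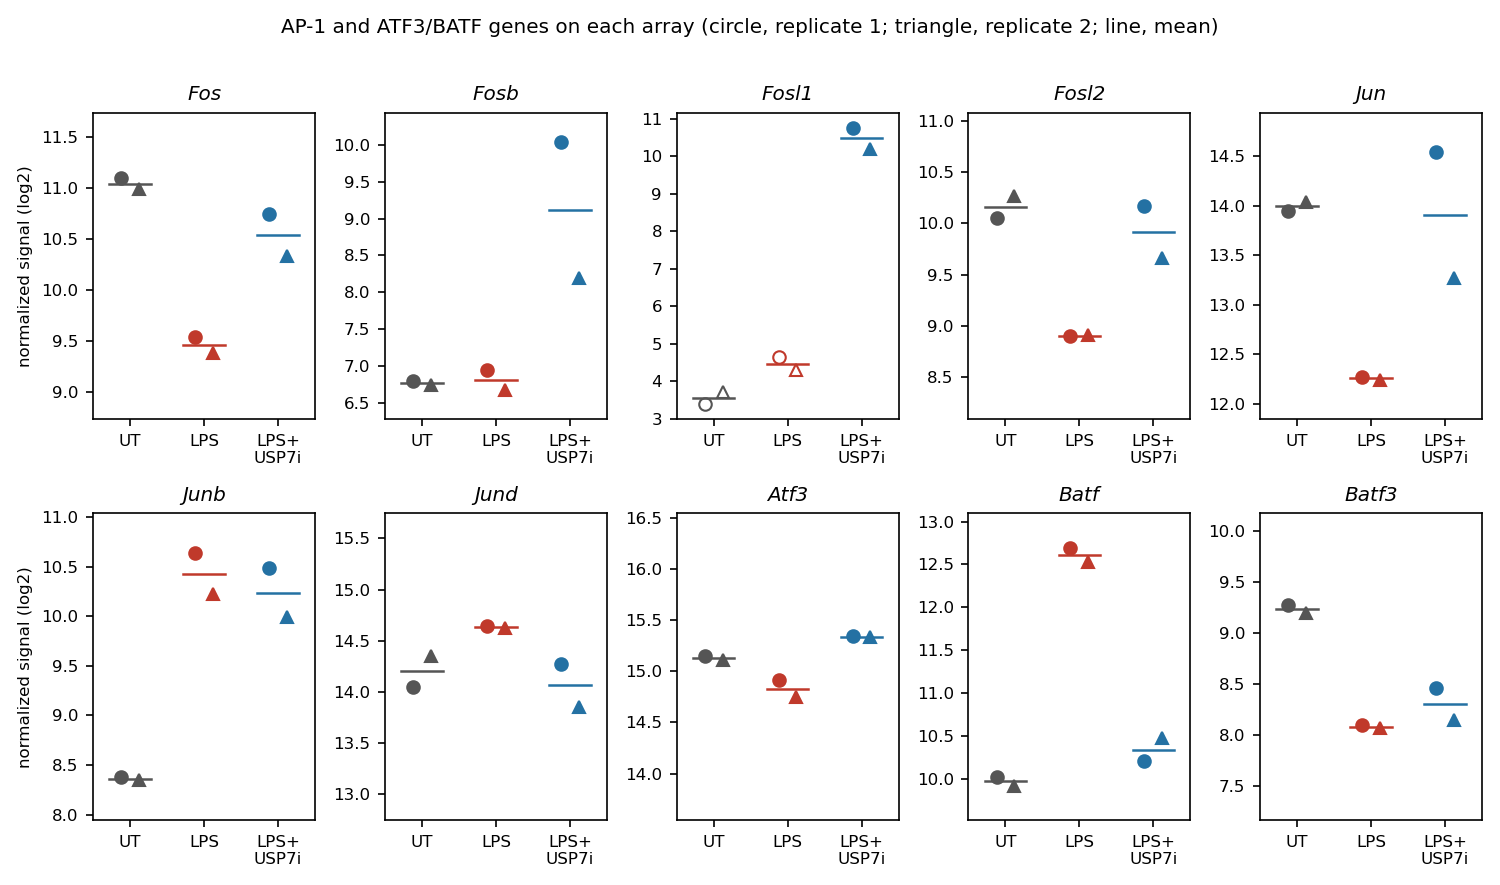
Normalized log2 signal of the 10 members on each of the 6 arrays (circle, replicate 1; triangle, replicate 2; line, mean of the group; open symbols, not well above background on either array of the group), with a separate vertical scale in each panel. *Batf* was highest with LPS at 12.70 and 12.53, and *Fosl1* was above background with LPS+USP7i only, at 10.76 and 10.19.

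Among the FOS genes, *Fos* and *Fosl2* were lower with LPS and *Fosl1* was detected with LPS+USP7i only. *Fos* encodes the founding member of the family, and its probe (mm9 chr12:86817900-86817959) lay on 10 spots per array whose SD was at most 0.12. Its normalized log2 signal was 11.09 and 10.98 on untreated arrays, 9.54 and 9.38 on LPS arrays and 10.74 and 10.33 on LPS+USP7i arrays. The 3 groups did not overlap, with LPS the lowest and LPS+USP7i between LPS and untreated cells. *Fos* fell by 1.58 with LPS (standard error 0.17, adjusted p = 0.00998), a 2.99-fold decrease, and was 1.08 higher with LPS+USP7i than with LPS (standard error 0.17, adjusted p = 0.0406), a 2.11-fold increase. The difference of −0.50 between LPS+USP7i and untreated cells did not pass (adjusted p = 0.164). The decrease with LPS no longer passed without untreated replicate 1 (adjusted p = 0.0613), untreated replicate 2 (0.0594) or LPS replicate 2 (0.0523), in a range of 0.000741 to 0.0613 over 14 alternatives. The increase with LPS+USP7i was lost without either untreated array or with only these 2 groups in the fit (0.109), without LPS replicate 1 (0.124) or 2 (0.141) and without LPS+USP7i replicate 1 (0.0688), in a range of 0.00764 to 0.141.

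*Fosl1* encodes FRA1, which like FRA2 lacks the transactivation domain of FOS. Its probe (mm9 chr19:5455496-5455555) read 3.39 and 3.71 in untreated cells and 4.64 and 4.32 with LPS, in each case not well above background, and 10.76 and 10.19 with LPS+USP7i. Before normalization the processed signal was 11.04 and 17.35, 20.12 and 18.58, and 1327 and 1102 in the same order. Both LPS+USP7i arrays thus stood far above the 4 others. Where a group is not well above background the fold is a lower bound, the bright group's mean log2 value minus the mean of a floor in the dim group, the floor on each array being the dim probe's own value or, if higher, the dimmest probe that passed the background criterion. By that bound *Fosl1* was at least 59.3-fold higher with LPS+USP7i than with LPS (adjusted p = 0.0104) and at least 94.8-fold higher than in untreated cells (adjusted p = 0.00454). These bounds hold for the scale reported here and not for each alternative: with normexp background correction, after which 50 was added to each signal, the folds were 15.2 and 16.9, and in the deposited values 31.1 and 42.3. No fold is given between LPS and untreated cells, both being dim. That difference passed under 75th percentile scaling (0.0201) and with dim probes left out (0.0324). The probe stayed among the latter only through the LPS+USP7i arrays, and nothing is read from either value. The difference from untreated cells passed in 14 of 14 alternatives (adjusted p 6.52e-05 to 0.0396). The difference from LPS passed in 11 (0.000257 to 0.0561) and was lost without untreated replicate 1 or 2 and with only the 2 groups in the fit (0.0561 each).

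*Fosl2* encodes FRA2. Its brighter probe (mm9 chr5:32460076-32460135) gave 10.06 and 10.27 on untreated arrays, 8.90 and 8.91 on LPS arrays and 10.17 and 9.66 on LPS+USP7i arrays. The LPS arrays were the lowest, and untreated and LPS+USP7i arrays overlapped. *Fosl2* fell by 1.26 with LPS (standard error 0.20, adjusted p = 0.0256), a 2.39-fold decrease. The difference of 1.01 between LPS+USP7i and LPS (standard error 0.20) did not pass (adjusted p = 0.0659), but did without LPS+USP7i replicate 2 (0.0372), with normexp background correction (0.0398) and with dim probes left out (0.0204; 0.0204 to 0.207 over the alternatives). The decrease with LPS passed in 8 of 14 alternatives (0.00604 to 0.521). It was lost without untreated replicate 1 (0.0907) or 2 (0.123), without LPS replicate 1 (0.112) or 2 (0.103), with the replicate block described at the end, and with both probes averaged, where it was −0.57 (0.521). A second probe was dim, at 2.37 and 2.83, 3.15 and 2.27, and 5.64 and 3.63, and was above background on 1 LPS+USP7i array only. With both averaged, LPS+USP7i minus untreated turned from −0.24 to 0.90, and neither value passed.

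*Fosb*, an immediate early gene that like *Fos* encodes a strong activator, differed most between the LPS+USP7i arrays among the 10 members' brightest probes. Its probe (mm9 chr7:19888168-19888227) read 6.80 and 6.75 on untreated arrays, 6.95 and 6.68 on LPS arrays and 10.04 and 8.19 on LPS+USP7i arrays. Untreated and LPS arrays overlapped, and both LPS+USP7i arrays were above them. The differences of 2.30 from LPS (95% confidence interval 0.48 to 4.12, adjusted p = 0.138) and 2.34 from untreated cells (adjusted p = 0.117) did not pass. Without LPS+USP7i replicate 2 they were 3.22 and 3.26 and passed (0.0241 and 0.0242), and without LPS+USP7i replicate 1 they were 1.38 and 1.41, where the latter alone passed (0.0555 and 0.037). Both passed with dim probes left out (0.038 and 0.0296), and the latter also under 75th percentile scaling (0.0407; ranges 0.0241 to 0.348 and 0.0242 to 0.331). Between LPS and untreated cells the difference was 0.037 (adjusted p = 1), and it turned to −0.097 without LPS replicate 1.

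Of the 3 JUN genes *Junb* alone passed with LPS, where it was higher. The lower *Jun* passed in 6 of 14 alternatives but not as reported. *Jun* encodes c-JUN, the main partner of FOS, and its probe (mm9 chr4:94716928-94716987) gave 13.95 and 14.04 on untreated arrays, 12.27 and 12.25 on LPS arrays and 14.54 and 13.27 on LPS+USP7i arrays. Both LPS arrays were below the other 4, while LPS+USP7i arrays lay on either side of the untreated ones. The difference of −1.74 with LPS (standard error 0.45) had an adjusted p of 0.0820 and that of 1.64 between LPS+USP7i and LPS one of 0.127. The first passed without LPS+USP7i replicate 1 (0.00951) or 2 (0.00952), with only these 2 groups in the fit (0.00952), with normexp (0.0145), with dim probes left out (0.0201) and in the deposited values (0.0313), in a range of 0.00951 to 0.268. The second was 1.01 without LPS+USP7i replicate 1 (0.037) and 2.28 without LPS+USP7i replicate 2 (0.0241), and passed there, with normexp (0.0299) and with dim probes left out (0.0355), in a range of 0.0241 to 0.311. Against untreated cells LPS+USP7i differed by −0.093 (adjusted p = 0.985), which turned to 0.23 under 75th percentile scaling, or −0.21 relative to the shift of all genes, and to 0.54 without LPS+USP7i replicate 2. Without LPS+USP7i replicate 1 that difference was −0.73 and passed (0.0358; range 0.0358 to 1).

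*Junb*, whose product is a weaker activator that can restrain c-JUN, was higher with LPS than in untreated cells. Its probe (mm9 chr8:87501881-87501940) read 8.38 and 8.34 on untreated arrays, 10.64 and 10.22 on LPS arrays and 10.48 and 9.99 on LPS+USP7i arrays. LPS and LPS+USP7i arrays overlapped, and both groups were above untreated cells. *Junb* rose by 2.07 with LPS (standard error 0.23, adjusted p = 0.0116), a 4.19-fold increase, and was 1.88 higher with LPS+USP7i than in untreated cells (standard error 0.23, adjusted p = 0.0189), a 3.67-fold increase. Between LPS+USP7i and LPS the difference was −0.19 (95% confidence interval −0.84 to 0.45, adjusted p = 0.724), and its sign turned to 0.017 without LPS replicate 1 and to 0.053 without LPS+USP7i replicate 2. The increase with LPS was lost without untreated replicate 1 (0.0665) or 2 (0.0716) and without LPS replicate 1 (0.0519), in a range of 0.000728 to 0.0716. That of LPS+USP7i over untreated cells was lost without the same untreated arrays (0.0947 and 0.101) and without LPS+USP7i replicate 1 (0.0518), in a range of 0.00159 to 0.101.

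*Jund*, which many cell types express without stimulation, passed in 0 of the 3 limma comparisons. Its probe (mm9 chr8:73224436-73224495) gave 14.05 and 14.35 on untreated arrays, 14.64 and 14.62 on LPS arrays and 14.28 and 13.85 on LPS+USP7i arrays. LPS arrays were the highest, and untreated and LPS+USP7i arrays overlapped. The differences were 0.43 with LPS (adjusted p = 0.254), −0.57 between LPS+USP7i and LPS (adjusted p = 0.188) and −0.13 between LPS+USP7i and untreated cells (adjusted p = 0.783). Under 75th percentile scaling the first was 0.99 and passed (0.00677; range 0.00677 to 0.64), or 0.59 relative to the shift of all genes, and the last turned to 0.21, or −0.23 relative to that shift. The last also turned to 0.014 without untreated replicate 2 and to 0.077 without LPS+USP7i replicate 2.

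*Batf* gave the largest difference with LPS among the 9 members above background in both groups. BATF was first described in lymphocytes, where it pairs with JUN proteins, and its probe (mm9 chr12:87049872-87049929) lay on 10 spots per array with an SD of at most 0.073. The signal was 10.02 and 9.92 on untreated arrays, 12.70 and 12.53 on LPS arrays and 10.21 and 10.47 on LPS+USP7i arrays. LPS arrays stood above the other 4, and LPS+USP7i arrays were slightly above untreated ones. *Batf* rose by 2.64 with LPS (standard error 0.13, adjusted p = 0.00329), a 6.25-fold increase, and fell by 2.27 with LPS+USP7i relative to LPS (standard error 0.13, adjusted p = 0.0114), a 4.83-fold decrease. Against untreated cells the LPS+USP7i arrays were 0.37 higher, which did not pass (adjusted p = 0.179). The increase passed in 14 of 14 alternatives (4.29e-05 to 0.0334) and the decrease in 11 (0.000301 to 0.0561), and the latter was lost without untreated replicate 1 or 2 and with only the 2 groups in the fit (0.0561 each).

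*Atf3* encodes a stress-induced factor known as a repressor of TLR-induced cytokine genes. Its probe (mm9 chr1:192994547-192994606) read 15.15 and 15.11 on untreated arrays, 14.91 and 14.75 on LPS arrays and 15.34 and 15.34 on LPS+USP7i arrays. The groups did not overlap, with LPS the lowest and LPS+USP7i the highest, but they spanned less than 1 log2 unit. *Atf3* was 0.51 higher with LPS+USP7i than with LPS (standard error 0.079, adjusted p = 0.0410), a 1.42-fold increase. This call passed in 4 of 14 alternatives (0.0351 to 0.219). It was lost when any 1 of the 6 arrays was left out, with adjusted p of 0.112 without untreated replicate 1 or 2, 0.0608 and 0.0851 without LPS replicate 1 and 2, and 0.127 and 0.101 without LPS+USP7i replicate 1 and 2. It was also lost under 75th percentile scaling (0.202), in the deposited values (0.219), with only these 2 groups in the fit (0.112) and with the replicate block. With LPS the difference of −0.30 did not pass (adjusted p = 0.0849), and it turned to 0.33 under 75th percentile scaling, or −0.072 relative to the shift of all genes. Against untreated cells LPS+USP7i was 0.21 higher (adjusted p = 0.215), and under that scaling 0.64 higher with an adjusted p of 0.00931 (range 0.00931 to 0.657), or 0.20 relative to the shift.

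*Batf3*, known for its role in the development of cross-presenting dendritic cells, was lower in both groups that received LPS. Its probe (mm9 chr1:192932528-192932587) gave 9.27 and 9.20 on untreated arrays, 8.10 and 8.07 on LPS arrays and 8.46 and 8.15 on LPS+USP7i arrays. Untreated arrays were the highest, and the LPS+USP7i arrays were slightly above the LPS arrays. *Batf3* fell by 1.15 with LPS (standard error 0.12, adjusted p = 0.0104), a 2.22-fold decrease, and fell by 0.93 with LPS+USP7i relative to untreated cells (standard error 0.12, adjusted p = 0.0216), a 1.91-fold decrease. The difference of 0.22 between LPS+USP7i and LPS did not pass (95% confidence interval −0.12 to 0.56, adjusted p = 0.453). The decrease with LPS was lost without untreated replicate 1 (0.0634) or 2 (0.0613) and without LPS replicate 1 (0.057) or 2 (0.0545), in a range of 0.000967 to 0.0634. The decrease with LPS+USP7i was lost without the untreated arrays (0.109 and 0.0995) and without either LPS array or with only these 2 groups in the fit (0.0634), in a range of 0.00309 to 0.109. The sum of the dendritic cell markers given above, mostly the signal of *Siglech*, was also lowest on the LPS arrays. With LPS+USP7i, where *Batf3* was also lower than in untreated cells, it was 51420 and 34670, against 45060 and 38070 in untreated cells. At an adjusted p under 0.05 in limma, 1 of the 7 markers was higher and 0 lower with LPS than in untreated cells. *Zbtb46* was above background with LPS but not in untreated cells, and the other 5 were above it on 0 arrays. Their part in *Batf3* was not tested.

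**Figure D2:**
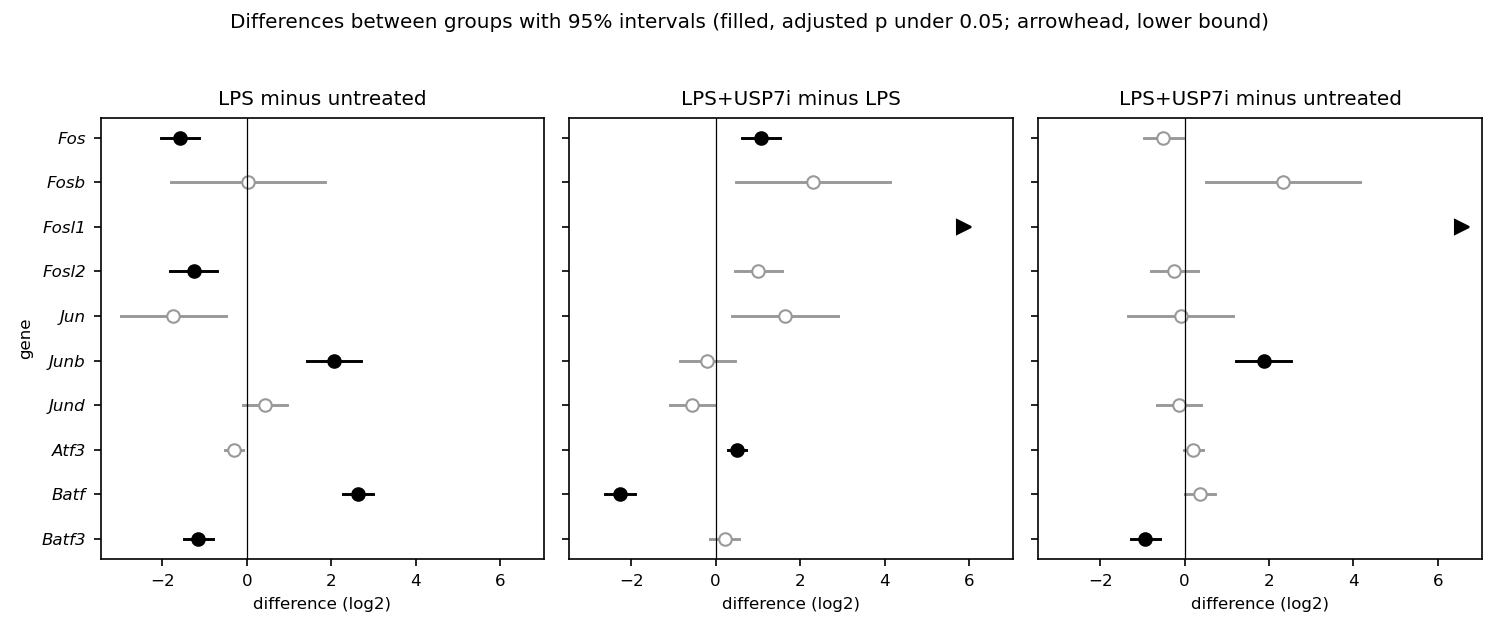
Log2 differences of the members (horizontal axis) in the 3 comparisons, with 95% confidence intervals from limma as lines, filled symbols for an adjusted p under 0.05, and an arrowhead at the lower bound of *Fosl1*, which has no symbol where both groups were dim. *Batf* was 2.64 higher with LPS than in untreated cells and fell by 2.27 with LPS+USP7i relative to LPS; *Batf3* fell by 1.15 with LPS.

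**Figure D3:**
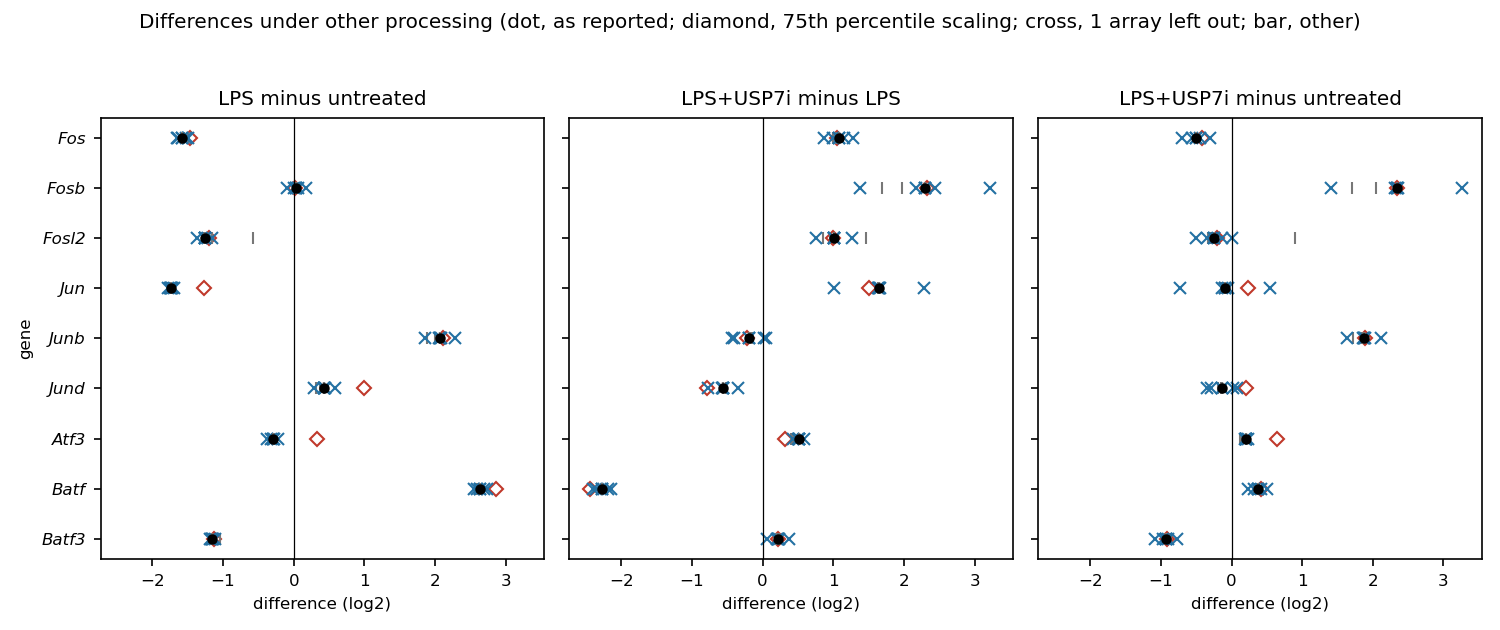
Log2 differences of the 9 members above background in every group (horizontal axis) as reported (dot), under 75th percentile scaling (diamond), with 1 array left out (cross) and under each other alternative (bar). *Batf* in LPS minus untreated stayed between 2.56 and 2.86, whereas *Atf3* in that comparison went from −0.30 to 0.33 under 75th percentile scaling, or −0.072 relative to the shift of all genes. In LPS+USP7i minus untreated *Jun* and *Jund* went to 0.23 and 0.21, or −0.21 and −0.23 relative to that shift.

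Over the 6 arrays the profile of *Fos* followed those of *Fosl2* (Pearson r = 0.97) and *Jun* (0.93) and ran opposite to that of *Batf* (−0.97). The arrays form 3 groups of 2, so these values mostly restate the group means, and no p is given. *Fosl1*, not well above background in 2 of 3 groups, is left out here. The 3 profiles nearest to each other member were found among 13258 other genes. *Fos* was followed by *Per1*, *Slc26a11* and *Tmem234* (r = 0.999, 0.998 and 0.998), and 662 genes exceeded r = 0.95. *Fosb* was followed by *4931440P22Rik*, *Cryab* and *Hapln3* (0.997, 0.996 and 0.994; 106 genes) and *Fosl2* by *Vegfa*, *Smtn* and *D030056L22Rik* (0.996, 0.996 and 0.994; 454 genes). *Jun* was followed by *Clk1*, *Hexim1* and *Pkdcc* (0.997, 0.996 and 0.994; 205 genes), *Junb* by *Rab22a*, *Pim1* and *Cpeb4* (0.997 each; 306 genes), and *Jund* by *Rab3gap1*, *Klk10* and *Hadha* (0.990, 0.973 and 0.966), with 4 genes over 0.95. *Atf3* was followed by *Numbl*, *Rnf6* and *Nifk* (0.999, 0.998 and 0.998; 190 genes), *Batf* by *Fam98b*, *Cebpd* and *Tagap1* (0.998 each; 588 genes), and *Batf3* by *Lrrc17*, *0610009L18Rik* and *Epn1*, with 1138 genes over 0.95. Most members thus shared their order of groups with many other genes on the array.

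Genes around AP-1 were taken from 8 lists of bZIP relatives, kinases, regulators and targets, of which 120 of 123 genes were found. With LPS 33 were higher and 29 lower, and their median difference was 0.016, while with LPS+USP7i relative to LPS 18 were higher and 15 lower, with a median of 0.11. Of all genes, 7.98% were higher and 12.8% lower in the first comparison and 5.52% and 4.27% in the second. Since 113 of the 120 were above background, the shares of the 18327 such genes, 13.8% and 23% and then 9.73% and 7.27%, are the nearer ones to set beside these lists. Under 75th percentile scaling 42 were higher and 27 lower with LPS, with 34.9% of all genes higher and 11.6% lower. Without untreated replicate 1 or 2, limma gave 0 of the 120 between LPS+USP7i and LPS, with 66 at an unadjusted p under 0.05, so the calls against LPS named below were all lost there, with their differences unchanged. *Usp7* itself, the target of the inhibitor, read 11.95 and 11.98, 12.41 and 12.40, and 12.11 and 12.43, and its differences of 0.44 with LPS (adjusted p = 0.104) and −0.14 with LPS+USP7i (adjusted p = 0.627) did not pass. The first passed in 5 of 14 alternatives: under 75th percentile scaling (0.0211), with normexp (0.0269), and with only these 2 groups in the fit or without either LPS+USP7i array (0.0286 each). The second turned to 0.026 without LPS+USP7i replicate 1 and to 0.0019 with all probes averaged.

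Of the 17 JDP2, BATF2, ATF and CREB genes, 4 were higher and 4 lower with LPS, and 3 were higher and 1 lower with LPS+USP7i relative to LPS. *Batf2*, a close relative of *Batf*, read 10.17 and 9.89 on untreated arrays, 14.76 and 14.68 on LPS arrays and 12.49 and 13.16 on LPS+USP7i arrays. It rose by 4.69 (adjusted p = 0.00383) and fell by 1.89 with LPS+USP7i (adjusted p = 0.0335), so that *Batf* and *Batf2* were both highest with LPS. *Jdp2*, a repressor that pairs with JUN proteins, rose by 4.58 with LPS (adjusted p = 0.00245). With LPS+USP7i it read 13.86 and 13.96, against 13.36 and 13.07 with LPS. That difference of 0.70 did not pass in limma (adjusted p = 0.0511). *Irf8*, which acts with BATF proteins, read 14.17 and 14.11, 15.25 and 15.87, and 12.51 and 12.35, rose by 1.42 (adjusted p = 0.0267) and fell by 3.13 with LPS+USP7i (adjusted p = 0.0144). It was 1 of 2 IRF partners of BATF, and the other passed in neither comparison. *Creb1* was 1.58 higher with LPS (adjusted p = 0.00572), and *Atf4* and *Atf1* were 1.26 (adjusted p = 0.0269) and 1.22 higher (adjusted p = 0.0126) with LPS+USP7i than with LPS.

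**Figure D4:**
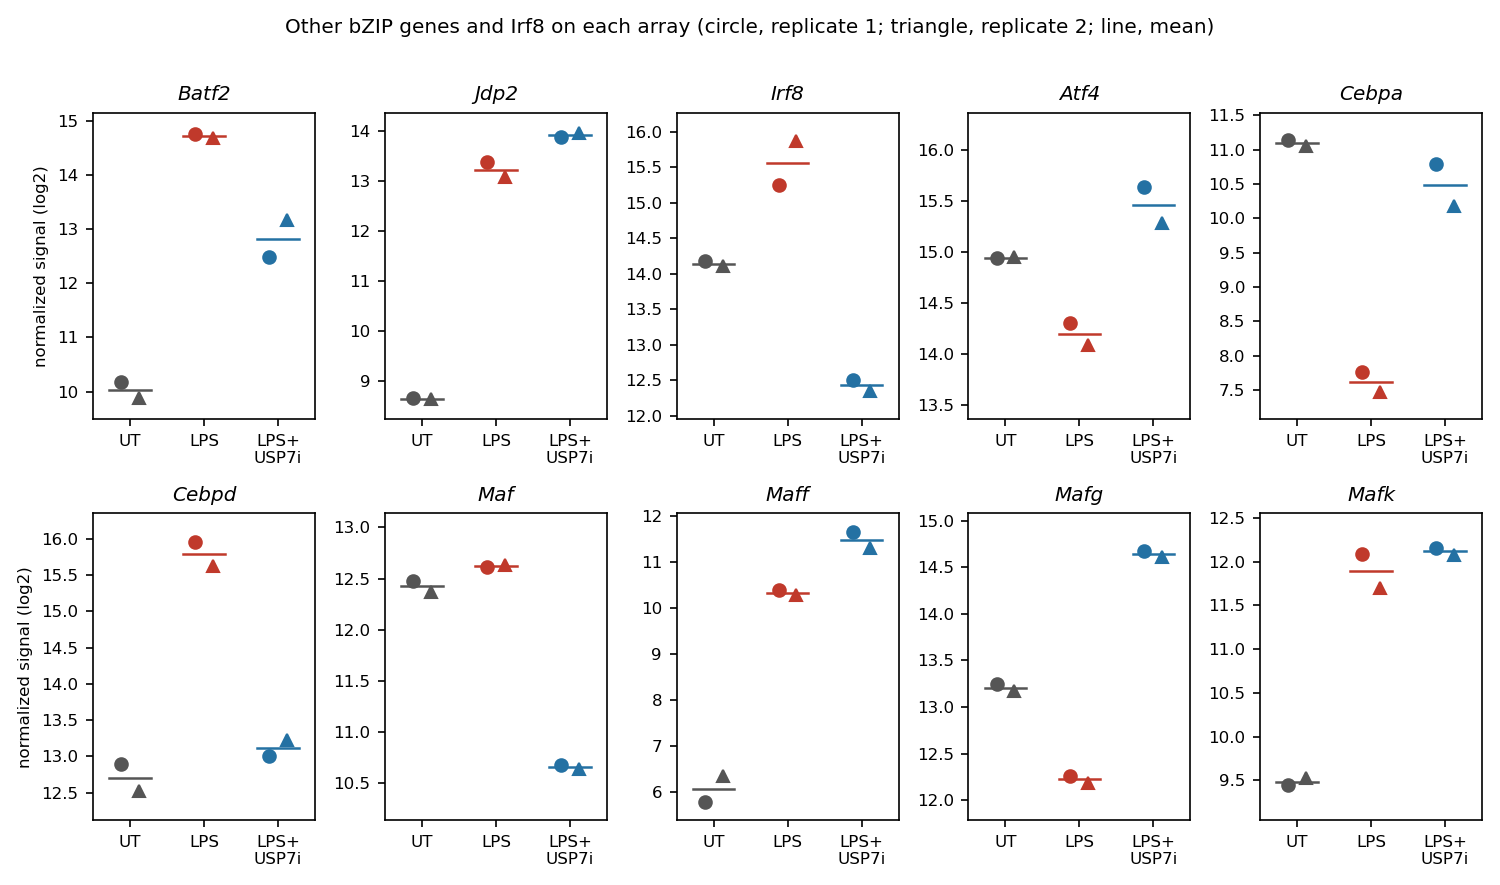
Normalized log2 signal of 10 relatives and partners of the members on each array, drawn as for the members with a separate scale in each panel. *Batf2* and *Irf8* were highest with LPS, at 14.76 and 14.68 and at 15.25 and 15.87, and *Mafg* was highest with LPS+USP7i.

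Of 6 C/EBP genes 1 was higher and 2 lower with LPS, and 3 were higher and 1 lower with LPS+USP7i relative to LPS. *Cebpa*, a regulator of myeloid differentiation, fell by 3.48 (adjusted p = 0.00494) and was 2.87 higher with LPS+USP7i (adjusted p = 0.0164), the order of groups seen for *Fos*. *Cebpg* fell by 1.09 with LPS (adjusted p = 0.00658) and was 1.15 higher with LPS+USP7i (adjusted p = 0.0153). *Cebpd* rose by 3.08 (adjusted p = 0.00439) and fell by 2.68 (adjusted p = 0.0144), the order seen for *Batf*. Of 6 MAF genes 2 were higher and 2 lower with LPS, where *Maff* and *Mafk* rose by 4.26 (adjusted p = 0.00395) and 2.41 (adjusted p = 0.00429). With LPS+USP7i *Mafg* was 2.42 higher and *Maf* fell by 1.97 relative to LPS (adjusted p = 0.00987 each).

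Of 35 MAP kinases and upstream kinases 9 were higher and 11 lower with LPS, and 5 were higher and 3 lower with LPS+USP7i relative to LPS. *Map3k8*, the kinase TPL2, and *Mapkapk2* rose by 2.72 (adjusted p = 0.00426) and 2.68 (adjusted p = 0.00281), and *Map3k1* fell by 2.87 (adjusted p = 0.00289). With LPS+USP7i *Map3k14* and *Mapk7* were 1.90 (adjusted p = 0.0183) and 1.32 (adjusted p = 0.0318) higher than with LPS, and *Rps6ka5* fell by 1.81 (adjusted p = 0.0221). Of 7 factors of *Fos* and *Jun* transcription found, 1 was higher and 3 lower with LPS and 1 was lower with LPS+USP7i. *Mef2d* fell by 2.31 with LPS (adjusted p = 0.00871), *Mef2a* rose by 1.34 (adjusted p = 0.0370), and *Mef2c* fell by 1.06 (adjusted p = 0.00401) and, with LPS+USP7i relative to LPS, fell by 1.13 (adjusted p = 0.0113). Of 15 regulators of FOS and JUN protein and mRNA, 1 was higher and 4 lower with LPS and 2 were higher with LPS+USP7i. *Zfp36l1* fell by 3.75 (adjusted p = 0.0123), *Zfp36* rose by 2.47 (adjusted p = 0.00418), and *Gsk3b* was 1.22 higher with LPS+USP7i than with LPS (adjusted p = 0.0224). *Zfp36l2*, which destabilizes AU-rich mRNAs, fell by 4.48 (adjusted p = 0.00391) and was 2.49 higher with LPS+USP7i than with LPS (adjusted p = 0.0209). Of 32 textbook targets with AP-1 sites 14 were higher and 3 lower with LPS, and 4 were higher and 7 lower with LPS+USP7i relative to LPS. *Edn1* was at least 448-fold higher with LPS than in untreated cells, where it was not well above background (adjusted p = 0.00302). That bound did not hold with normexp, where it was 97.2-fold higher, or in the deposited values, where it was 326-fold higher. *Edn1* fell by 4.43 with LPS+USP7i relative to LPS (adjusted p = 0.0200). That difference was −3.82 without LPS+USP7i replicate 1 and −5.04 without LPS+USP7i replicate 2. *Ptgs2*, above background on 1 of 2 untreated arrays only, was also higher with LPS (adjusted p = 0.00258), by 8.02 to 10.49 over the alternatives. *Hmox1* was 4.53 higher with LPS+USP7i than with LPS (adjusted p = 0.0113).

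Several calls among these relatives were lost with 1 array left out. Where that array belonged to the third group, the difference between the other 2 stayed the same and only the estimate of the spread had fewer arrays. Of the differences with LPS named above, that of *Irf8* was lost without untreated replicate 1 (adjusted p = 0.114) or 2 (0.127) and, at the same 1.42, without LPS+USP7i replicate 1 (0.0652) or 2 (0.0651). *Mef2a* was lost without untreated replicate 2 (0.0791), LPS replicate 1 (0.147) or 2 (0.094) and, at the same 1.34, either LPS+USP7i array (0.0865), *Mef2d* without untreated replicate 1 (0.0555) or 2 (0.0546), and *Zfp36l1* without untreated replicate 1 (0.0716) or 2 (0.0696) and LPS replicate 1 (0.0651) or 2 (0.0642). With all probes of a gene averaged, *Creb1* went to 0.15 (0.765) and *Mef2a* to 0.050 (0.915). Over the 14 alternatives the difference with LPS went from −2.39 to −1.46 for *Mef2d* and from 3.26 to 4.55 for *Maff*. That between LPS+USP7i and LPS went from 1.17 to 1.82 for *Atf1* and from −1.16 to −0.51 for *Mef2c*. Between LPS+USP7i and LPS, leaving out LPS replicate 1 or 2 also ended the calls of *Batf2* (0.133 and 0.117), *Atf4* (0.083 and 0.0945), *Cebpa* (0.0574 and 0.0617), *Map3k14* (0.0766 and 0.073), *Mapk7* (0.117 and 0.118), *Rps6ka5* (0.0781 and 0.0834), *Gsk3b* (0.0811 and 0.0845), *Zfp36l2* (0.0867 and 0.0827) and *Edn1* (0.0805 and 0.0802). Without LPS+USP7i replicate 1, *Batf2* (0.0512), *Atf4* (0.0569), *Cebpg* (0.0547) and *Map3k14* (0.0577) did not pass. *Irf8*, *Atf1*, *Cebpd*, *Mafg*, *Maf*, *Mef2c* and *Hmox1* kept their differences from LPS whichever LPS or LPS+USP7i array was left out. The replicate block described at the end also ended the call of *Irf8* between LPS and untreated cells (limma adjusted p = 0.0518). Between LPS+USP7i and LPS it ended those of *Batf2* (0.0664) and *Gsk3b* (0.0506).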

How the data were processed

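The authors deposited each array's scanner output (Feature Extraction 10.7.3.1), with background-corrected spot intensity values, and a table of normalized log2 values. Here the log2 processed signal was quantile-normalized, outlier spots were left out and spots of a probe averaged. A linear model of all 6 arrays was fitted with limma 3.58.1 in R 4.3.3, with Benjamini-Hochberg adjustment over 55680 probes and a threshold of 0.05. The fit was also run on simulated data, with larger changes than most given here and noise independent between arrays. That run does not bear on the calls of smaller differences. Genes were represented by their brightest probe, and 22221 of 34787 names matched RefSeq.

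The members and lists were chosen with earlier results of these data known. Text names all members, *Usp7*, *Batf2*, *Jdp2*, the up to 3 largest passing differences per list and comparison, and the 3 genes nearest each member except *Fosl1* by Pearson r. Some genes that fit this rule are counted in their lists but not reported here. Alternatives were 75th percentile scaling, normexp (offset 50), the deposited log2 values, dim probes left out, outlier spots kept, 2 groups only, a replicate block, each array left out, probes averaged and a log2 difference of at least 1. Further promoter motifs were added after seeing the data. *Mkl1*, *Mkl2* and *Rfwd2*, and the marker *Trac*, were not found by name. Protein sequences were not used here.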

Additional observations from a re-analysis of the deposited data

How the results depend on the processing

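Of the members' log2 differences under 14 alternatives, 339 kept direction and side of the threshold, 46 no longer passed, 24 newly passed and 11 changed sign. The sign changes were, under 75th percentile scaling, *Atf3* in LPS minus untreated (0.33) and *Jun* (0.23) and *Jund* (0.21) in LPS+USP7i minus untreated; without untreated replicate 2, *Jund* there (0.014); without LPS replicate 1, *Fosb* in LPS minus untreated (−0.097) and *Junb* in LPS+USP7i minus LPS (0.017); without LPS+USP7i replicate 2, *Junb* in that comparison (0.053) and *Fosl2* (0.013), *Jun* (0.54) and *Jund* (0.077) in LPS+USP7i minus untreated; and with all probes averaged, *Fosl2* there (0.90). With 1 array left out these differences ranged from −0.097 to 0.17 (*Fosb*, LPS minus untreated), −0.44 to 0.053 (*Junb*, LPS+USP7i minus LPS), −0.50 to 0.013 (*Fosl2*), −0.73 to 0.54 (*Jun*) and −0.35 to 0.077 (*Jund*, the last 3 in LPS+USP7i minus untreated). Relative to the shift of all genes under 75th percentile scaling, the first 3 were −0.072, −0.21 and −0.23. *Batf* in LPS+USP7i minus untreated went from 0.37 to 0.41 under that scaling, or −0.028 relative to the shift. *Fosb* in LPS minus untreated went from 0.037 to 0.017, or −0.38 relative to the shift. These signs turned only through subtracting a median over all genes, by which single members did not move alike. None of the 11 passed the threshold before or after. The cause was not tested.

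Between LPS+USP7i and LPS, 7 members passed with dim probes left out, where 15.1% of the 18327 genes tested were higher and 12.9% lower. With only these 2 groups in the fit, 0 members and 0 of all genes passed. There limma's smallest adjusted p was 0.0561, and 5 members had an unadjusted p under 0.05. That fit has fewer arrays to estimate the spread. Under 75th percentile scaling 5 members passed between LPS+USP7i and untreated cells, with 35% of all genes higher and 9.64% lower. Of the 120 other genes, 33 passed between LPS+USP7i and LPS, 54 with normexp (8.28% of all genes higher and 6.82% lower), 50 of 113 with dim probes left out and 0 with 2 groups (66 at an unadjusted p under 0.05). With 1 array left out, members past the threshold ranged from 1 to 6, 0 to 6 and 1 to 4 in LPS minus untreated, LPS+USP7i minus LPS and LPS+USP7i minus untreated, and other genes from 38 to 57, 0 to 30 and 19 to 36, with the shares of all genes in these settings given above. The group left with 1 array was assumed to vary like the others.

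With the replicate block, 4, 3 and 3 members and 63, 25 and 48 other genes passed in the same order, with 8.43%, 4.1% and 6.36% of all genes higher and 13.5%, 3.23% and 9.42% lower. Replicate differences of the groups correlated with r = 0.468, 0.398 and 0.422 over 20705 probes, but the labels do not say that equal numbers share an experiment. Equal numbers shared a slide column. The block ended the calls of *Fosl2* with LPS (adjusted p = 0.0517) and *Atf3* between LPS+USP7i and LPS (0.0619) and, among named relatives, of *Irf8* with LPS (0.0518) and *Batf2* (0.0664) and *Gsk3b* (0.0506) between LPS+USP7i and LPS. Signal over background limits *Fosl1* to a bound in 2 groups.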
